A study of Mus musculus with 8 samples.

Results

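Serpins are protease inhibitors that act as bait: a protease cuts an exposed loop of the serpin, the serpin snaps shut, and the enzyme stays trapped on it. Clade B serpins lack a classical secretion signal and work mainly inside the cell. Cytotoxic lymphocytes need them because the granzymes they store for killing are proteases that can leak into their own cytosol. The 5 genes described here are Serpinb9, Serpinb6b, Serpinb6a, Serpinb9b and Serpinb1a, 5 of the 24976 gene symbols in the count table, taken by name over all 8 libraries. In mouse, Serpinb9 inhibits granzyme B and protects cytotoxic T cells from their own enzyme, and Serpinb6b inhibits granzyme A. Serpinb9b has been reported to inhibit granzyme M. Serpinb6a and Serpinb1a inhibit cathepsin G, a serine protease of myeloid granules, and Serpinb1a also inhibits neutrophil elastase. The genes were chosen with their genotype differences in these libraries known, so every dKO against WT value of the 5 genes is a description, without a test.

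The libraries are bulk RNA-seq of mouse CD8+ T cells, isolated as naive cells and activated in culture with anti-CD3, anti-CD28 and IL-2. The libraries labelled dKO come from mice with Cd8Cre and floxed Nr4a1 and Nr4a2, which encode nuclear receptors induced by T cell receptor signalling, and the WT libraries come from wild-type littermates. The 4 groups were dKO at 48 h, WT at 48 h, dKO at 24 h and WT at 24 h, with 2 libraries each, and all cells received the same stimulus. Neither the age of the animals is given in the labels nor whether the 2 libraries of a group came from separate mice, so p-values measure only the spread between these libraries, which may be technical.

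Total counts ran from 5000952 to 21686236 per library, so a count of 0 allows up to 3 counts, or 0.138 to 0.600 counts per 1e6 counts (CPM). Such limits cover counting error only. Cd8a stood at 447 to 991 CPM over total counts, and Cd4 had 0 to 2 counts, as the labelled cell type implies. Foxp3, the other CD4 T cell marker examined, was counted in every library, at 1.3 to 3.5 CPM. Of the B cell markers, Cd79b stood at 3.2 to 6.4 CPM, while Ms4a1 and Cd79a had 1 and 3 counts over all libraries. Of 6 myeloid markers in the table, Lyz2 and Elane were at 0 in every library, and the other 4 summed to 2.08 to 2.59 CPM in dKO against 3.92 to 5.46 in WT at 48 h, and 3.15 to 4.37 in dKO against 2.24 to 2.49 in WT at 24 h. The counts of Nr4a1 and Nr4a2 did not check the dKO label, so dKO stands below for the libraries labelled so. Nr4a1 stood at 634 to 668 CPM in dKO against 777 to 879 CPM in WT at 48 h, and at 505 to 532 CPM in dKO against 275 to 525 CPM in WT at 24 h. Nr4a2 stood at 75.3 to 77.2 CPM in dKO against 24.6 to 33.1 CPM in WT at 48 h, and at 136 to 142 CPM in dKO against 49.1 to 59.7 CPM in WT at 24 h. No source used here says which exons were floxed, and reads from other exons can still count. Xist stood at 0.719 to 1.80 CPM in dKO libraries and 323 to 805 CPM in WT, so genotype label and sex cannot be told apart. Replicate 2 of WT at 48 h stood apart: it was the deepest library, and ribosomal protein genes took 7.04% of its counts against 11% to 13.4% in the others. In bulk RNA, fewer cells expressing a gene and less RNA per cell cannot be told apart.

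All 5 genes lie in the serpin cluster of mouse chromosome 13, within 1161 kb of build GRCm38 (mm10). From low to high coordinate they are Serpinb1a (32842092 to 32851185, minus strand), Serpinb6b (32965209 to 32979067, plus), Serpinb9 (33003250 to 33017957, plus), Serpinb9b (33027416 to 33041884, plus) and Serpinb6a (33917918 to 34002794, minus). A sixth clade B gene, Serpinb6c (33879816 to 33905708, minus), had more counts than any of the 5, and its values are given where they bear on its relatives. Coding sequences of Serpinb9 and Serpinb9b matched at 85.3% of aligned bases, and those of Serpinb6b and Serpinb6c at 86.5%. Serpinb6a matched Serpinb6b at 81.2%, Serpinb9 matched Serpinb6b at 66.7%, and Serpinb1a matched the other 4 at 55.7% to 58.1%.

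Near-identical copies can share reads, and no source used here says how reads that match several genes were counted. The share of 50-base stretches of the longest coding transcript that occur in another gene was 0.38% for Serpinb9, 3.12% for Serpinb6b, 2.96% for Serpinb6a and 10.4% for Serpinb6c. Serpinb6a carries a further uncertainty, since Nqo2 and Ripk1 lie on the other strand and share 762 and 241 of its 5409 exon bases. The strand rule is not given either, so reads in these stretches cannot be assigned to 1 gene.

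Serpinb9 and Serpinb6b had the largest dKO against WT differences among the members with enough counts for a fold change. Serpinb9b, next to Serpinb9 and the closest to it in coding sequence of the 6 genes aligned, was barely counted. The sequences before the start sites of these genes are shown for that reason. They are from RefSeq on build GRCm38.p6, plus strand, 5′ to 3′, and end at the base before the start, except that for Serpinb6b the bases inside an annotated exon are left out. For Serpinb9 the RefSeq start lies inside the gene as GENCODE annotates it, which begins at 33003250. Only the RefSeq start of Serpinb9 was searched, not the bases before 33003250. Capitals mark matches to the motifs searched.
Serpinb9, chr13:33004291-33004540: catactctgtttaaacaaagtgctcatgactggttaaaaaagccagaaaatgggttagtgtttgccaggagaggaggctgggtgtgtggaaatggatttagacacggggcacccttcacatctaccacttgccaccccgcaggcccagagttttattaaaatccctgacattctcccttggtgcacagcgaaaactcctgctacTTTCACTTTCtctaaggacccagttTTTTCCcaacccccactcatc
Serpinb9b, chr13:33027164-33027413: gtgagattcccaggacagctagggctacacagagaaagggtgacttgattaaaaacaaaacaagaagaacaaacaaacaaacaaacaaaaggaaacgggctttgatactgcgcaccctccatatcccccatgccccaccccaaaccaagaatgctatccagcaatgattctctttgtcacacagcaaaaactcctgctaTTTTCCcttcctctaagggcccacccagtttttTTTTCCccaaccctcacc
Serpinb6b, chr13:32965011-32965208: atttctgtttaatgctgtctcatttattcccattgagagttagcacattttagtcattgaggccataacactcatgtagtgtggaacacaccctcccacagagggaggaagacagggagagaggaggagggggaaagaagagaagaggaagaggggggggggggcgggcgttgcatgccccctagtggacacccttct

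Motifs of factors active in T cells were searched on both strands of the 250 bases before each start. They were AAAGGTCA, the site an NR4A receptor binds as a monomer, TGANTCA (AP-1), the GAAA repeat of interferon regulatory factors (2 copies of GAAA 2 bases apart), the NF-kB site, GGAAAA (the core of NFAT sites) and TATAAA (the TATA box). In Serpinb9, the GAAA repeat matched on the minus strand 46 to 37 bases before the start, and GGAAAA matched on the minus strand 21 to 16 bases before it. The GAAA repeat occurs in 2.98% and GGAAAA in 20.4% of 32851 mouse promoters of the same length. Serpinb9b held GGAAAA at 51 to 46 and at 18 to 13 bases before its start. Serpinb6b held none of the 6 motifs, and Serpinb6a held the GAAA repeat 84 to 75 bases before 1 of its 2 starts. Serpinb1a had no window and was not searched. AAAGGTCA, found in 1.34% of all promoters, was in none of these windows, and neither were TGANTCA (6.75%), the NF-kB site (4.11%) or TATAAA (12.4%). The windows of Serpinb9 and Serpinb9b matched at 56.0% of aligned bases, and those of Serpinb9 and Serpinb6b at 42.0%. A match or its lack in such a window says nothing about whether a factor binds.

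Serpinb9, the granzyme B inhibitor, was highest in dKO cells at 24 h, and in each genotype its 48 h libraries lay below its 24 h libraries. It stood at 62.4 and 66.5 CPM in dKO at 48 h, 36.1 and 39.8 CPM in WT at 48 h, 138 and 108 CPM in dKO at 24 h, and 50.6 and 53.0 CPM in WT at 24 h. The 4 groups did not overlap, and from high to low their order was dKO at 24 h, dKO at 48 h, WT at 24 h, WT at 48 h. Groups of 2 libraries can separate without a tested difference, which holds for every such order given here. At 24 h dKO and WT were also apart for Ctsb, a cathepsin gene, and Ripk1, a gene near the cluster (edgeR adjusted p = 0.9005 each). The share of all genes so separated is not given. The mean was 123 ± 21.0 CPM in dKO and 51.8 ± 1.71 CPM in WT at 24 h (SD, n = 2 each), a log2 fold change of 1.25 (SE 0.16). At 48 h it was 64.5 ± 2.92 CPM in dKO and 38.0 ± 2.60 CPM in WT (SD, n = 2 each), a log2 fold change of 0.76 (SE 0.16). The counts behind these levels were 420 and 513 in dKO against 212 and 758 in WT at 48 h, with 1265 and 584 in dKO against 361 and 362 in WT at 24 h.

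Serpinb6b, the granzyme A inhibitor, was also highest in dKO cells at 24 h, while its WT libraries lay in 1 range at both times. It stood at 61.7 and 62.9 CPM in dKO at 48 h, 38.5 and 27.5 CPM in WT at 48 h, 98.3 and 86.0 CPM in dKO at 24 h, and 26.1 and 34.4 CPM in WT at 24 h. The WT groups of the 2 times overlapped, and every dKO library lay above every WT library. The mean was 92.2 ± 8.69 CPM in dKO and 30.3 ± 5.90 CPM in WT at 24 h (SD, n = 2 each), a log2 fold change of 1.61 (SE 0.20). At 48 h it was 62.3 ± 0.873 CPM in dKO and 33.0 ± 7.82 CPM in WT (SD, n = 2 each), a log2 fold change of 0.93 (SE 0.20). Its counts ran from 186 to 901 per library.

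Serpinb6a, which inhibits cathepsin G and trypsin-like proteases, had levels that lay farther apart between times than between genotypes. It stood at 33.1 and 28.0 CPM in dKO at 48 h, 26.1 and 17.0 CPM in WT at 48 h, 12.2 and 11.1 CPM in dKO at 24 h, and 10.7 and 8.06 CPM in WT at 24 h. Every 48 h library lay above every 24 h library, and within each time both dKO libraries lay above both WT libraries. With 2 libraries per group, such an order carries little weight by itself. The nearest pair was 28.0 CPM in dKO and 26.1 CPM in WT at 48 h, and 11.1 CPM in dKO and 10.7 CPM in WT at 24 h. The log2 fold change of dKO over WT was 0.32 (SE 0.26) at 24 h and 0.53 (SE 0.23) at 48 h. Its counts were the lowest of the 3, from 55 to 324 per library.

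**Figure D1:**
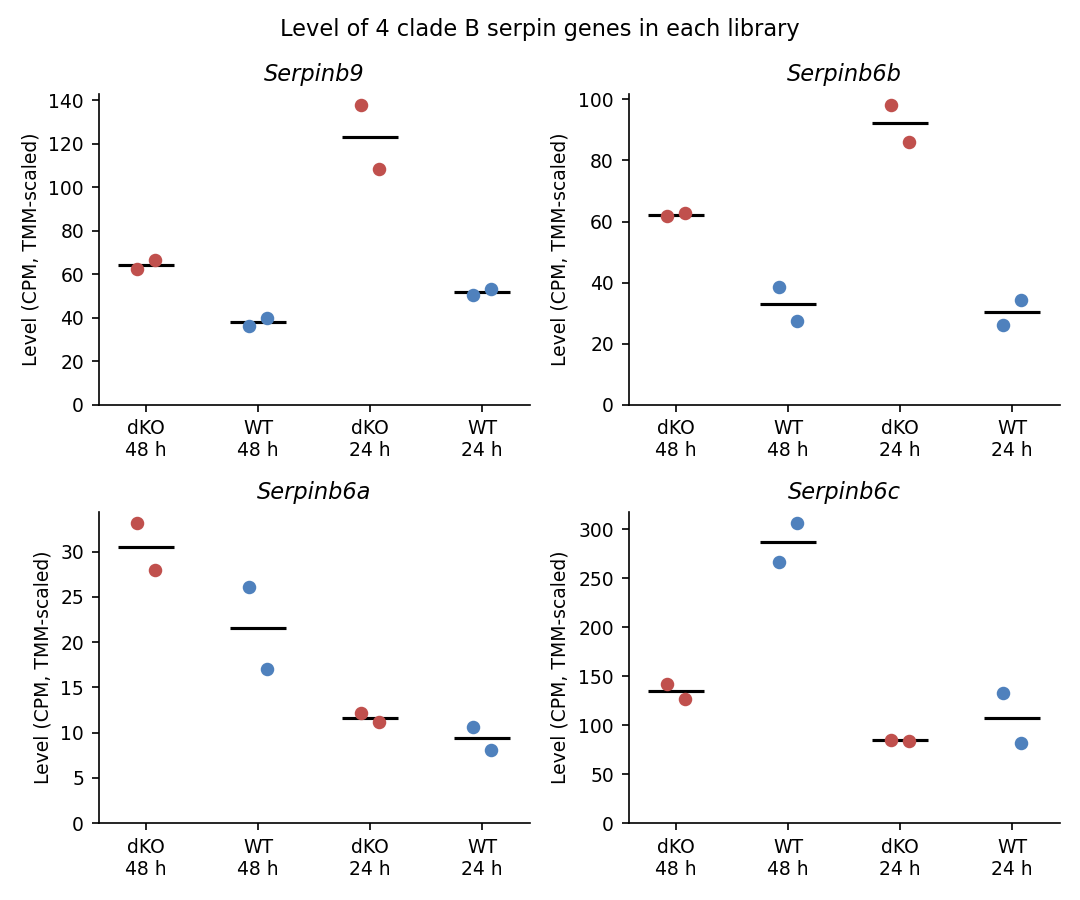
Level of Serpinb9, Serpinb6b, Serpinb6a and Serpinb6c in each library, in CPM scaled by TMM factors on axes that start at 0; points are libraries and lines are the means of 2. Serpinb9 (108 to 138 CPM) and Serpinb6b (86.0 to 98.3 CPM) are highest in dKO at 24 h, Serpinb6a is highest at 48 h, and Serpinb6c is highest in WT at 48 h (267 and 306 CPM).

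Serpinb9b and Serpinb1a were at the limit of detection. Serpinb9b had 1 and 0 counts in dKO against 0 and 0 in WT at 48 h, with 0 and 1 in dKO against 1 and 0 in WT at 24 h. Serpinb1a had 3 and 0 counts in dKO against 0 and 1 in WT at 48 h, with 0 and 1 in dKO against 0 and 0 in WT at 24 h. Every library was thus at or under the floor of 3 counts, no fold change is given for either gene, and a difference between groups was not detectable at this depth. Over all libraries the 2 genes had 3 and 5 counts, against 4475 for Serpinb9.

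Both genes failed the filter on low counts (at least 10 counts in enough libraries, scaled for depth), which kept 12742 genes, so 3 of the 5 members entered the fit. At an adjusted p below 0.05 in edgeR's quasi-likelihood test (Benjamini-Hochberg), which is how genes are called below, 2 of the 3, Serpinb9 and Serpinb6b, lay past the threshold as higher in dKO at 24 h and at 48 h. Over all genes tested, 0.361% were called higher and 0.0706% lower at 24 h, and 3.19% were called higher and 8.04% lower at 48 h. The genes were picked from these contrasts, so the count restates that choice, is no test of it, and nothing is read from it. At 24 h both genes fell short of the threshold without either WT library at 24 h or replicate 1 of dKO at 24 h, with log2 fold changes of 1.06 to 1.41 for Serpinb9 and 1.42 to 1.81 for Serpinb6b over the libraries left out. At 48 h both fell short without either dKO library at 48 h, and Serpinb6b also without replicate 2 of dKO at 24 h, with 0.68 to 0.84 for Serpinb9 and 0.70 to 1.17 for Serpinb6b. In a fit of only the 2 groups, neither lay past it at 48 h. Without replicate 2 of WT at 48 h, the log2 fold change at 48 h was 0.84 for Serpinb9, 0.70 for Serpinb6b and 0.23 for Serpinb6a. Without replicate 1 of WT at 48 h, the log2 fold change of Serpinb6a was 0.83.

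Serpinb6c, whose coding sequence is the closest to Serpinb6b of the 6 genes aligned, ran the other way at 48 h. It stood at 142 and 127 CPM in dKO at 48 h, 267 and 306 CPM in WT at 48 h, 84.8 and 84.4 CPM in dKO at 24 h, and 133 and 81.5 CPM in WT at 24 h. At 48 h both dKO libraries lay below both WT libraries, while at 24 h the groups overlapped. The log2 fold change of dKO over WT was -1.09 (SE 0.22; edgeR adjusted p = 0.0162) at 48 h and -0.34 (SE 0.22; edgeR adjusted p = 0.872) at 24 h. The call at 48 h was lost without replicate 2 of dKO at 24 h or without either dKO library at 48 h (-1.20 to -0.98 over the libraries left out). The adjusted p then reached 0.191.

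The makeup of the serpin counts within a library does not depend on how libraries were scaled. Serpinb9, Serpinb6b, Serpinb6a and Serpinb6c held 89.9% to 96.1% of all serpin counts in each library. Of the counts of these 4 genes, Serpinb6c took 47.5% and 44.7% in dKO against 72.6% and 78.4% in WT at 48 h, with 25.4% and 29.1% in dKO against 60.4% and 46.0% in WT at 24 h. Serpinb9 took 20.9% and 23.4% in dKO against 9.83% and 10.2% in WT at 48 h, with 41.4% and 37.4% in dKO against 22.96% and 29.97% in WT at 24 h. At both times the share of Serpinb6c was lower and that of Serpinb9 higher in each dKO library than in each WT library; these shares were not tested. On the scale of CPM per kilobase of coding sequence, Serpinb9 averaged 57.5 in dKO against 33.9 in WT at 48 h, and 109.8 in dKO against 46.2 in WT at 24 h. The level of Serpinb6c on that scale was 118 in dKO against 252 in WT at 48 h, and 74.4 in dKO against 94.3 in WT at 24 h. On that scale Serpinb9 was thus above Serpinb6c in dKO at 24 h and below it in the other 3 groups. The longest coding transcript has 3472 bases for Serpinb9 and 1327 for Serpinb6c, against coding lengths of 1122 and 1137 bases. The order in dKO at 24 h therefore depends on which length is used. No source used here says whether reads covered whole transcripts, so levels per length may not compare genes evenly.

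With time, Serpinb6a rose in both genotypes, and the level of Serpinb9 in dKO was lower at 48 h than at 24 h. The comparison of 48 h with 24 h was not named in the choice of the genes, although they were chosen with results for these libraries known. The dKO libraries at 24 h, where Serpinb9 and Serpinb6b were highest, also enter the genotype differences known at the choice. The p-values of these 2 genes with time in dKO are therefore no independent support for a fall. In dKO, Serpinb6a averaged 30.6 ± 3.62 CPM at 48 h and 11.7 ± 0.775 CPM at 24 h (SD, n = 2 each), a log2 fold change of 1.38 (SE 0.24; edgeR adjusted p = 0.0161). In WT, Serpinb6a averaged 21.6 ± 6.41 CPM at 48 h and 9.36 ± 1.84 CPM at 24 h (SD, n = 2 each), a log2 fold change of 1.17 (SE 0.25; edgeR adjusted p = 0.0131). Serpinb9 fell in dKO by 0.94 on the log2 scale (SE 0.16; edgeR adjusted p = 0.0122). In WT the log2 fold change of Serpinb9 was -0.44 (SE 0.16; edgeR adjusted p = 0.111), and both 48 h libraries lay below both 24 h libraries. With library size alone it was -0.81 and passed the threshold (edgeR adjusted p = 0.0101). For Serpinb6b it was -0.57 in dKO (SE 0.19; edgeR adjusted p = 0.126) and 0.11 in WT (SE 0.20; edgeR adjusted p = 0.798), where it was -0.27 with library size alone in place of TMM scaling.

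Of the 3 members tested, 1 was thus called higher and 1 lower in dKO with time, where 1.76% of all genes were called higher and 1.88% lower. The member called lower was Serpinb9. Its dKO libraries at 24 h enter the genotype differences known at the choice, so nothing is read from that call. In WT 1 was called higher and 0 lower, where 7.87% were called higher and 3.5% lower. These calls rest on few libraries. The rise of Serpinb6a was lost in dKO without any 1 of the 4 dKO libraries (1.28 to 1.51, adjusted p up to 0.177) and in WT without either 24 h library (0.87 to 1.47 over the libraries left out, adjusted p up to 0.167). The fall of Serpinb9 in dKO was lost without replicate 1 at 24 h or either library at 48 h (-1.10 to -0.75, adjusted p up to 0.196). Without replicate 2 of WT at 48 h, Serpinb9 was called lower in WT (-0.53, edgeR adjusted p = 0.0400) and Serpinb6b lower in dKO (-0.56, edgeR adjusted p = 0.00523). Without replicate 1 of WT at 48 h, Serpinb6b was called lower in dKO as well.

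The difference of the genotype differences between 48 h and 24 h, the interaction, was -0.49 (SE 0.22) for Serpinb9, -0.68 (SE 0.28) for Serpinb6b and 0.21 (SE 0.34) for Serpinb6a on the log2 scale. These 3 values rest on the contrasts known at the choice and are a description, without a test. Over all 12742 genes edgeR called 0%, with 1575 genes at an unadjusted p below 0.05, and DESeq2 called 0 genes.

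**Figure D2:**
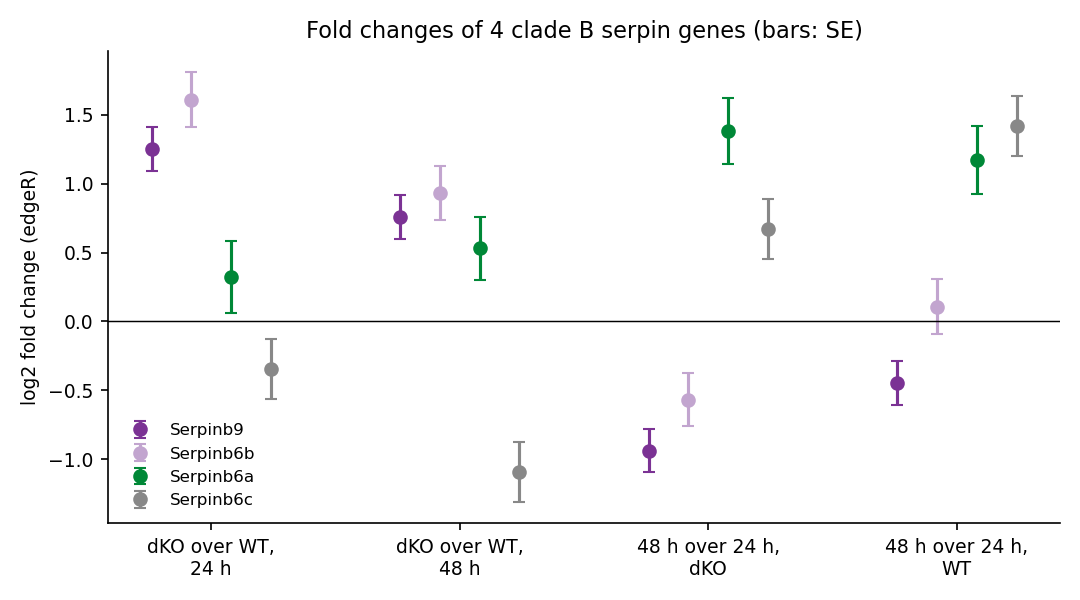
The log2 fold changes of Serpinb9, Serpinb6b, Serpinb6a and Serpinb6c in 4 comparisons, from 1 edgeR fit over 8 libraries; bars are 1 SE. Serpinb9 and Serpinb6b lie above 0 for dKO over WT at both times, Serpinb6c lies below 0, and with time Serpinb6a lies above 0 in both genotypes (1.38 in dKO and 1.17 in WT).

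Of the granzyme genes these serpins act on, Gzmb had the most counts. Gzmb, granzyme B, the target of Serpinb9, stood at 3164 and 3315 CPM in dKO at 48 h, 2228 and 2292 CPM in WT at 48 h, 649 and 692 CPM in dKO at 24 h, and 362 and 387 CPM in WT at 24 h. Gzmb rose with time in dKO by 2.27 on the log2 scale (SE 0.19; edgeR adjusted p = 0.000948) and in WT by 2.59 (SE 0.19; edgeR adjusted p = 0.000523), and both calls held without any 1 library. The log2 fold change of dKO over WT was 0.52 (SE 0.18; edgeR adjusted p = 0.0845) at 48 h and 0.84 (SE 0.18; edgeR adjusted p = 0.118) at 24 h. At both times both dKO libraries lay above both WT libraries without passing the threshold after adjustment. The unadjusted edgeR p was 0.0162 at 48 h and 0.000954 at 24 h.

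Set against its target within a library, Serpinb9 had 19.7 and 20.1 counts per 1000 Gzmb counts in dKO against 16.2 and 17.4 in WT at 48 h, with 213 and 156 in dKO against 140 and 137 in WT at 24 h. The mean ratio was 19.9 ± 0.244 in dKO and 16.8 ± 0.813 in WT at 48 h, and 185 ± 39.9 in dKO and 139 ± 1.94 in WT at 24 h (SD, n = 2 each). The dKO mean was 1.184 times the WT mean at 48 h and 1.333 times at 24 h (1.13 without replicate 1 of dKO at 24 h). For Serpinb6b the count per 1000 Gzmb counts was 19.5 and 19.0 in dKO against 17.3 and 11.99 in WT at 48 h, with 152 and 124 in dKO against 72.1 and 89.0 in WT at 24 h. These are ratios of counts, not of molecules, and the dKO and WT libraries did not overlap at either time. The ratios were not tested, and with 2 libraries per group the lack of overlap carries little weight by itself.

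**Figure D3:**
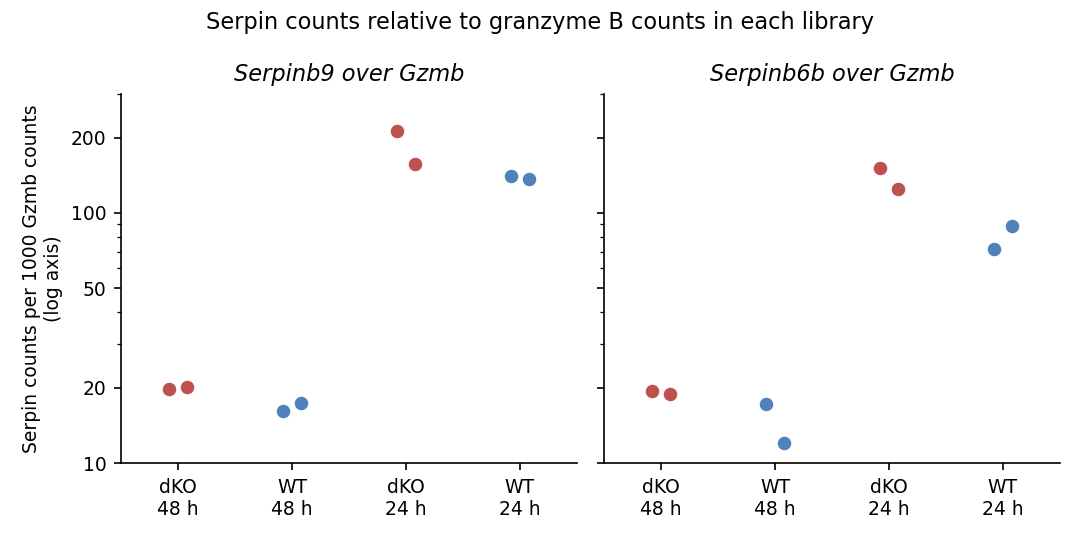
Counts of Serpinb9 and of Serpinb6b per 1000 Gzmb counts in each library, on a logarithmic axis; points are libraries. All libraries at 48 h lie between 11.99 and 20.1 and all at 24 h between 72.1 and 213, and within each time the dKO libraries lie above the WT libraries.

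Of 11 genes for granzymes and perforin 4 were tested. At 48 h 1 was called higher in dKO and 0 lower (2 called by DESeq2), and at 24 h 0 were called (2 at an unadjusted p below 0.05, and 1 by DESeq2), with list medians of 0.29 and 0.67 against -0.03 and 0.01 over all genes. The call was Gzmc, granzyme C, at 2.53 and 2.85 CPM in dKO against 0.171 and 0.315 CPM in WT at 48 h, a log2 fold change of 3.21 (SE 0.50; edgeR adjusted p = 0.0141), which was lost without either dKO library at 48 h. In WT at 48 h Gzmc had 1 and 6 counts, so its fold change is poorly bounded. Gzma, granzyme A, the target of Serpinb6b, was close to undetected, with 4 to 28 counts per library and 0.561 to 2.39 CPM. Prf1, the pore-forming perforin, stood at 16.1 and 20.5 CPM in dKO at 48 h, 19.6 and 24.7 CPM in WT at 48 h, 25.2 and 27.6 CPM in dKO at 24 h, and 24.96 and 29.6 CPM in WT at 24 h, and was called in no comparison. Gzmm, granzyme M, the reported target of Serpinb9b, had 0 to 7 counts per library and was not tested.

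Of 13 granule machinery genes tested, edgeR called 0 in any comparison, with list medians of 0.15 at 48 h and -0.02 at 24 h. At an unadjusted p below 0.05 it had 6 for genotype at 48 h, 1 for genotype at 24 h and 3 with time in each genotype, and DESeq2 called 1 at 48 h and 1 with time in WT. Among them Srgn, the proteoglycan serglycin that packs granzymes, stood at 429 and 438 CPM in dKO at 48 h, 491 and 293 CPM in WT at 48 h, 646 and 599 CPM in dKO at 24 h, and 612 and 647 CPM in WT at 24 h. Of 13 cathepsins 10 were tested, with list medians of 0.12 at 48 h and -0.10 at 24 h, and 1 was called higher in dKO at each time and 0 lower. It was Ctse, the aspartic protease cathepsin E, at 10.7 and 14.1 CPM in dKO against 1.02 and 1.16 CPM in WT at 48 h, and 10.5 and 13.7 CPM in dKO against 1.54 and 1.90 CPM in WT at 24 h. Its log2 fold change was 3.46 (SE 0.29; edgeR adjusted p = 0.000608) at 48 h and 2.79 (SE 0.29; edgeR adjusted p = 0.00242) at 24 h. The call at 48 h held without any 1 library, and the call at 24 h was lost without either WT library at 24 h (adjusted p up to 0.108). Ctsw, cathepsin W, fell with time in WT by 1.07 on the log2 scale (SE 0.15; edgeR adjusted p = 0.00258). The cysteine cathepsins Ctsb and Ctsl were called in no comparison; Ctsb stood at 44.0 to 53.8 CPM and Ctsl at 3.52 to 7.52 CPM.

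Among the other 35 serpins of the table, 12 of them in clade B, 4 were at 0 in all libraries and 19 had 1 to 20 counts in all. Of these 35, 5 were tested, among them Serpina3g, Serpinb6c and Serpine2. Beside the fall of Serpinb6c in dKO at 48 h, no other was called for genotype by edgeR, and at 24 h 1 had an unadjusted p below 0.05 and DESeq2 called 0. With time 2 were called higher in dKO and 3 in WT, with list medians of 0.80 and 1.75 against -0.01 and 0.00 over all genes. Serpina3g, an inhibitor of the cysteine cathepsins B and L known from memory CD8+ T cells, rose by 2.84 in dKO (SE 0.36; edgeR adjusted p = 0.00333; lost without replicate 1 at 24 h or replicate 2 at 48 h) and by 2.30 in WT (SE 0.32; edgeR adjusted p = 0.00258). It stood at 6.98 and 9.21 CPM in dKO at 48 h, 8.01 and 8.88 CPM in WT at 48 h, 0.764 and 1.67 CPM in dKO at 24 h, and 1.68 and 1.76 CPM in WT at 24 h. Serpine2, protease nexin 1, a secreted inhibitor of thrombin and urokinase, rose by 2.00 in dKO (SE 0.26; edgeR adjusted p = 0.00402; lost without any 1 dKO library) and by 2.75 in WT (SE 0.27; edgeR adjusted p = 0.000979). Serpinb6c rose in WT by 1.42 (SE 0.22; edgeR adjusted p = 0.00266). In dKO it had a log2 fold change of 0.67 (SE 0.22; edgeR adjusted p = 0.119). That fold change passed the threshold in 6 of 15 alternative settings, 4 of them fits without 1 library, and ran from 0.50 to 0.76.

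Of 17 protease inhibitors of other families 12 were tested, with list medians of 0.19 at 48 h and 0.01 at 24 h. At 48 h 2 were called lower in dKO and 0 higher: Timp2, an inhibitor of matrix metalloproteinases, at -0.69 (SE 0.19; edgeR adjusted p = 0.0484) and Birc6, a large inhibitor of apoptosis protein, at -1.45 (edgeR adjusted p = 0.0490). Both calls were lost in 7 of the 8 fits without 1 library, and Birc6 then ran from -2.06 to -0.34, with 324 counts in replicate 1 and 3391 in replicate 2 of WT at 48 h. With time Birc5, survivin, rose by 1.05 in dKO (SE 0.23; edgeR adjusted p = 0.0396) and by 0.91 in WT (SE 0.23; edgeR adjusted p = 0.0319), each lost without any of 6 libraries. Timp2 fell by 1.55 in dKO (SE 0.19; edgeR adjusted p = 0.00317; lost without replicate 1 at 24 h or either library at 48 h) and by 1.26 in WT (SE 0.18; edgeR adjusted p = 0.00258). Spint2, a membrane-bound Kunitz inhibitor, fell by 0.65 in WT (SE 0.14; edgeR adjusted p = 0.0159; lost without either WT library at 24 h). Cst7, cystatin F, an inhibitor of cathepsins in granules, stood at 43.9 to 81.2 CPM and was called in no comparison. Of the 13 caspases and death substrates tested 0 were called for genotype at either time by edgeR (1 at an unadjusted p below 0.05 at each time) or DESeq2, with list medians of 0.01 at 48 h and -0.03 at 24 h.

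Among the genes in the table, counts in the cluster were patchy along the chromosome. Between 500 kb before and 500 kb after the 5 genes, 21 other protein-coding genes are annotated, 17 of them in the table and 9 tested. Serpinb9e, Serpinb6d and Serpinb6e are annotated there but absent from the table, so their counts are unknown. Serpinb6d and Serpinb6e share 50-base stretches with Serpinb6c. Serpinb1c, Serpinb9c, Serpinb9d, Serpinb9f and Serpinb9g had 1 to 6 counts over all libraries and Serpinb1b had 11, while Serpinb6b had 3435, Serpinb9 4475 and Serpinb6c 12073. Of the 9 genes tested, 0 were called higher and 2 lower in dKO at 48 h, namely Serpinb6c and Mylk4, a kinase gene at the low-coordinate edge (-1.59, SE 0.43; edgeR adjusted p = 0.0446; lost without any of 7 libraries), and 0 were called at 24 h (1 at an unadjusted p below 0.05, 0 by DESeq2). With time, Nqo2, a quinone reductase gene inside Serpinb6a on the other strand, rose by 1.44 in dKO (SE 0.29; edgeR adjusted p = 0.0280; lost without any 1 dKO library) and by 1.35 in WT (SE 0.28; edgeR adjusted p = 0.0118; lost without either WT library at 24 h). Nqo2 shares exon bases with Serpinb6a, which rose in the same comparisons, and had 345 counts over all libraries against 1219 for Serpinb6a. The part that shared reads have in either rise was not tested. Ripk1, a kinase of cell death signalling that overlaps the other end of Serpinb6a, stood at 26.8 to 48.1 CPM and was not called with time.

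**Figure D4:**
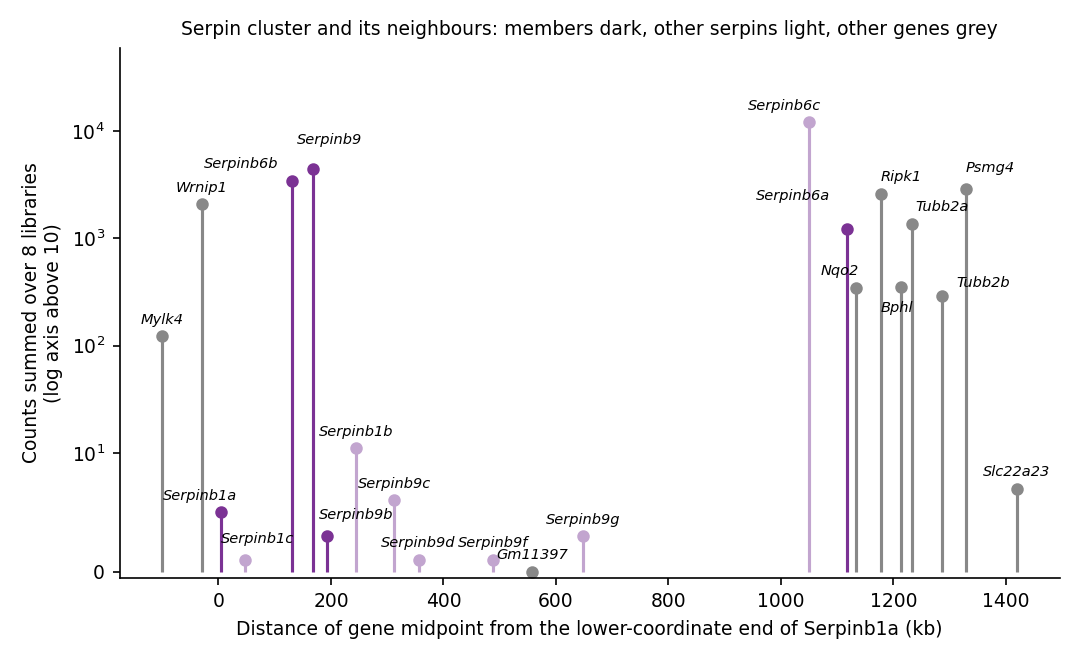
Counts summed over 8 libraries for the serpin cluster and its neighbours, placed by the distance of each gene's midpoint from the lower-coordinate end of Serpinb1a; the vertical axis is logarithmic above 10. Serpinb6b, Serpinb9, Serpinb6c and Serpinb6a carry over 1000 counts each, and every other clade B serpin shown has 11 counts or fewer. Serpins of the window that are absent from the count table are not shown.

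The profiles of the 3 measured members over the 8 libraries were compared with those of 10001 genes by the root mean square difference of log2 CPM, each profile centred on its own mean, so that 0 is an identical shape. Serpinb9 and Serpinb6b lay 0.33 apart, and Serpinb6b was the 32nd closest gene to Serpinb9. Serpinb6a lay 1.06 from Serpinb9 and 0.91 from Serpinb6b, farther than the median over all genes, which was 0.66 for Serpinb9 and 0.72 for Serpinb6b. The genes closest to Serpinb9 were Rasgef1b, an exchange factor for Ras-family proteins, at 0.14, Chst11, a chondroitin sulfotransferase, at 0.19, and Ifng, the cytokine interferon gamma, at 0.21. Closest to Serpinb6b were Fgr, a Src-family kinase, at 0.19, Ifng at 0.23 and Slc27a4, a fatty acid transport protein, at 0.25. Closest to Serpinb6a were Epsti1, an interferon-induced gene, at 0.09, Atpif1, an inhibitor of the mitochondrial ATP synthase, at 0.12, and C1qtnf12, which encodes a secreted protein, at 0.13. These libraries share 4 groups, depth and sex differences, so closeness is a description of shape only.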

How the data were processed

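The file deposited by the authors gives whole-number read counts of each gene in 8 libraries, not normalized. Per the submitters' processing notes, cutadapt 1.18, Bowtie2 2.2.5 and mm10 were used; which program counted reads, with which annotation and strand rule, no source used here says. The table holds 24976 symbols, 22981 with a count; 1 unnamed row equal to each column's total (50.0% of the column sum) was left out.

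CPM is the count per 1e6 of the total times the TMM factor, except in the paragraph on depth and labels, where Xist and Cd8a are over total counts. The test was edgeR's quasi-likelihood F test (edgeR 4.0.16, R 4.3.3) in 1 fit with a mean per group of 2 libraries, after filterByExpr with a minimum count of 10 (12742 genes), two-sided, with Benjamini-Hochberg adjustment over all tested genes and a threshold of 0.05. Each SE is the size of the log2 fold change divided by the root of its F. The common dispersion was 0.0246 with 4 residual degrees of freedom. DESeq2 1.42.0, other scalings, other filters and fits without a library were alternatives. The scripts were tested on simulated data.

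The 5 members, the gene lists and the tests were chosen with earlier results of these data known. Besides the members, the rule for named genes takes Nr4a1, Nr4a2, Gzmb, Gzma, Gzmc, Prf1, Ctsb, Ctsl, Serpina3g, Cst7 and Srgn, up to 4 called genes per list and comparison, called neighbours, and the 3 closest profiles of each tested member (prior count 2, mean of at least 20 counts). Serpinb6c, Gzmm, Ripk1 and the barely counted serpins of the cluster were named after their values were seen. A few genes of the lists are left out by name. Positions and exons are from GENCODE M21 and promoters from RefSeq. Total counts per library set the counting error, with a floor of 3 counts. The 2 libraries of a group differed by more than counting error. The chi-square per degree of freedom ran from 2.63 in dKO at 48 h to 67.9 in WT at 48 h.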

Additional observations from a re-analysis of the deposited data

How the results depend on the processing

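Without 1 library, genes called ranged from 13 to 371 at 24 h (55 in the fit of all libraries), 15 to 6521 at 48 h (1430), 32 to 3303 with time in dKO (463), 595 to 4212 with time in WT (1449) and 0 to 3459 for the interaction (0). Members called higher then ranged from 0 to 2 at 24 h, 0 to 3 at 48 h and 0 to 1 with time in either genotype. Members called lower ranged from 0 to 2 with time in dKO, 0 to 1 with time in WT and 0 to 1 for the interaction. The count of Serpinb9 per Gzmb count in dKO over WT ran from 1.15 to 1.23 at 48 h and from 1.13 to 1.54 at 24 h; these values were added after seeing the data.

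Without a filter on low counts, 206 genes were called at 24 h, 2962 at 48 h, 1649 with time in dKO and 170 for the interaction. With library size alone, 2531 were called at 48 h, 739 with time in dKO and 3366 with time in WT, where 1 member (Serpinb9) was then called lower. That scaling moved the median log2 fold change of all genes by 0.18 at 48 h, -0.17 with time in dKO, -0.36 with time in WT and 0.19 for the interaction. The share of calls that were higher was then 63.8% at 48 h (28.4% with TMM), 75.4% at 24 h (83.6%), 19.4% with time in dKO (48.4%) and 21.5% with time in WT (69.2%). In fits of only the 2 groups compared, 444 genes were called at 48 h with 0 members higher, 181 at 24 h, 4546 with time in dKO with 2 members lower, and 31 with time in WT with 0 members higher. The interaction needs all 4 groups and has no such fit.

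The direction turned for Serpinb6b with time in WT (0.11; -0.27 with library size alone, and -0.12 to 0.34 without 1 library), for Serpinb6a in the interaction (0.21; -0.079 to 0.51 without 1 library) and for Serpinb6c at 24 h (-0.34; -0.67 to 0.057 without 1 library). The cause was not tested. No fold change of Serpinb9, and none of Serpinb6b or Serpinb6a for genotype, changed sign under any alternative run.

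Deviations of same-numbered libraries correlated at -0.08 to 0.17 over the group pairs. Such values cannot settle whether the numbers pair libraries, since depth and quality also enter the deviations, and the labels do not say. With the replicate block, 2 members were called higher at each time, and no count of member calls changed. Over all genes, 56 were called at 24 h and 1285 at 48 h, with 404 called with time in dKO and 1369 with time in WT. Throughout this section, genotype calls of members restate the choice of the genes and are no test of it. Depth limits Serpinb9b, Serpinb1a, Gzma, Gzmc and Gzmm.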
